A study of Mus musculus with 4 samples.

Results

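Axon guidance ligands and receptors are the secreted or membrane-bound cues that steer growing axons, and the receptors that read them. The 68 genes described here were selected by gene name, as the semaphorins of classes 3 to 7, plexins, neuropilins, ephrins, Eph receptors, netrins, Dcc and Unc5 receptors, Slits and Robos on the array. They carried 122 of the 41174 probes and were 68 of the 28146 gene names. Their transcripts were read in RNA of fetal brains (C57BL/6J mice) by 2-colour arrays, whose probes are 60 bases long. FD is a pool of brains from fetuses of dams that went without food overnight on gestation day 17. FR is a pool from fetuses of dams kept on 50% of the control intake of chow between gestation days 10 and 17, with caesarean section on day 18. The design text names no section day of its own for FD. Controls were fetuses of dams fed ad libitum.

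Each pool held RNA of 5 fetuses. Every treated pool shared 2 arrays with control RNA, in opposite dyes, the treated pool in Cy5 on array 1 and in Cy3 on array 2. There was 1 pool per condition, so the 2 arrays give technical error only, no p-value was computed, and a difference between pools cannot be told apart from a difference between diets. The labels do not say how many litters a pool came from, nor whether both comparisons used one control pool. The control RNA of the comparisons was not alike, however. Summed signal of skeletal muscle markers was 8561 to 8776 in the control of FD and 2590 to 2687 in the control of FR. The technical SD of the mean of a dye swap was 0.0722 on the log2 scale over 16768 genes and 0.077 over the 57 guidance genes measured on all 4 arrays.

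Semaphorins signal through plexins, and most secreted class 3 semaphorins need a neuropilin as co-receptor. Ephrins are bound to the membrane and their Eph receptors are tyrosine kinases, so that signalling needs contact between cells. Netrin attracts axons through Dcc and repels them through Unc5 receptors, while Slits bind Robo receptors and repel axons from the midline. Late in mouse gestation, axon tracts of the forebrain, such as the corpus callosum and the corticospinal tract, are still growing.

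The guidance genes that passed a set size between a treated pool and its control pool did so by modest factors. In FR, the ligands Slit3 and Sema5b were higher and the ligand Sema3e was lower. That is 3.39% and 1.69% of 59 members, beside 3.85% and 4.2% of all genes. In FD, none of the 63 measured members passed the same size, beside 1.18% of all genes higher and 1.0% lower. Relative to their controls, the netrin receptor Dcc was the only member lower in FD than in FR by that size. Sema3e was the only one higher. That is 1.75% of 57 members each way, beside 2.46% of all genes lower and 2.87% higher. A member counted as called when both arrays lay past 1.2-fold (0.263 on the log2 scale) in one direction.

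Sequences are shown for the probes that carried the 2 ligands higher in FR, in the array files' own letters. The probe of Sema5b (A_52_P127115) lies on the plus strand at chr16:35662805-35662864 and that of Slit3 (A_51_P301809) on the plus strand at chr11:35521559-35521618, both on build mm9. The array files do not state exon or untranslated region. GC content was 55.0% for Sema5b and 53.3% for Slit3.
Sema5b: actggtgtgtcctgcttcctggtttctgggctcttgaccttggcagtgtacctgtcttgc
Slit3: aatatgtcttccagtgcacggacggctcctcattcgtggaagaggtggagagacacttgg

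A gene was measured in a comparison when a probe was well above background in both channels of both arrays and free of outlier flags, and its brightest such probe stood for it. By that rule 63 of the 68 members were measured in FD and 59 in FR. Sema3d, a secreted semaphorin, and Ntn4, a laminin-binding netrin, were too dim in both comparisons, and Ntn5 was too dim in FD. The remaining gaps came from flagged spots. In FD they took out Sema7a and Ephb1. In FR they took out Efnb1, Nrp2, Robo1, Robo4, Sema4a, Sema6b and Ephb1. Flags fell on the bright end of the family. The 18 member probes flagged on at least 1 array had log2 signals between 10.2 and 13.2 with a median of 11.4, while the 104 others had a median of 7.37. All flags on member probes were for uneven pixels in the green channel. For 6 members (Epha4, Epha5, Plxna1, Plxna3, Plxnb2 and Sema6d) the FD and FR values come from different probes.

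The tissue was checked by its markers. Of 10 neuronal markers, 8 were found on the array by their listed name and all 8 were above background in every channel. Their summed signal was 58725 to 60413 in FD, against 60542 to 64371 in its control, and 57461 to 62543 in FR, against 60701 to 62851 in its control. Skeletal muscle markers were lower in FD than in its control, with 8 of 8 called, beside 1.0% of all genes. Their summed signal was 2075 to 2076 in FD, against 8561 to 8776 in its control. In FR the muscle sum was 2585 to 2617, against 2590 to 2687 in its control. The control of FD thus stood apart, far above every other pool. All 8 muscle markers were above background in every pool. Pituitary markers were also lower in FD than in its control, with 2 of 4 measured called (Gh at -1.52 and Pomc at -1.05), beside the same 1.0%. Their sum was 914 to 999 in FD, against 1622 to 1694 in its control. In FR the pituitary sum was 920 to 993, against 929 to 948 in its control. Here too the control of FD stood above every other pool. Of 5 measured markers of meninges and fibroblasts, 2 were called lower in FD (Col1a1 at -0.83 and Lum at -0.35), beside 1.0% of all genes. In FR 1 was called higher (Col1a1 at 0.50), beside 3.85% of all genes. The meninges and fibroblast sum over 4 was 4389 to 4492 in FD, against 6269 to 6869 in its control. In FR it was 6030 to 6495, against 4823 to 4982 in its control. Median log2 ratios in FD and FR were -0.10 and 0.06 for neural progenitors, 0.05 and -0.04 for microglia, and -0.04 and -0.01 for endothelium. They were -0.06 and -0.21 for mural cells, -0.02 and 0.05 for choroid plexus, and 0.10 and -0.01 for retina and lens. In FR, Clic6 (0.40) was called higher among 4 choroid plexus markers, beside 3.85% of all genes. Hes5 (-0.44) was called lower among 5 progenitor markers, beside 4.2%. The choroid plexus sum was 2496 to 2530 in FR, against 2001 to 2093 in its control. In FD it was 2110 to 2177, against 2021 to 2072. The progenitor sum over 4 was 2487 to 2616 in FD, against 2865 to 3042 in its control. In FR it was 2973 to 3021, against 2956 to 3145. The part of these other cells in the values below was not tested.

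Among the ligands, every member measured in FD was inside the 1.2-fold limit on at least one array. The 30 measured ligands had a median log2 ratio of -0.03 in FD, and the 29 measured in FR had one of 0.08. Class 3 semaphorins are secreted and mostly repel axons. The member lowest in both comparisons was Sema3e, which binds Plxnd1 directly and acts on axons and blood vessels. Its log2 ratios were -0.48 and -0.72 on the FR arrays (mean -0.60), and -0.14 and -0.45 on the FD arrays (mean -0.30). All 4 values were negative, and both FR values were past the limit. The log2 channel signal of Sema3e was 9.08 in FD, against 9.38 in its control, and 8.87 in FR, against 9.46 in its control. Both control pools thus stood above both treated pools.

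The Sema3e result rests on one of its probes. The brightest probe (A_52_P439407) lies at chr5:14256431-14256490. The second measured probe (A_51_P483438, chr5:14254023-14254082) gave 0.03 and -0.32 in FR and 0.27 and -0.42 in FD. Its arrays therefore disagreed in sign in both comparisons. The other pair of Sema3e probes was not above background.

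**Figure D1:**
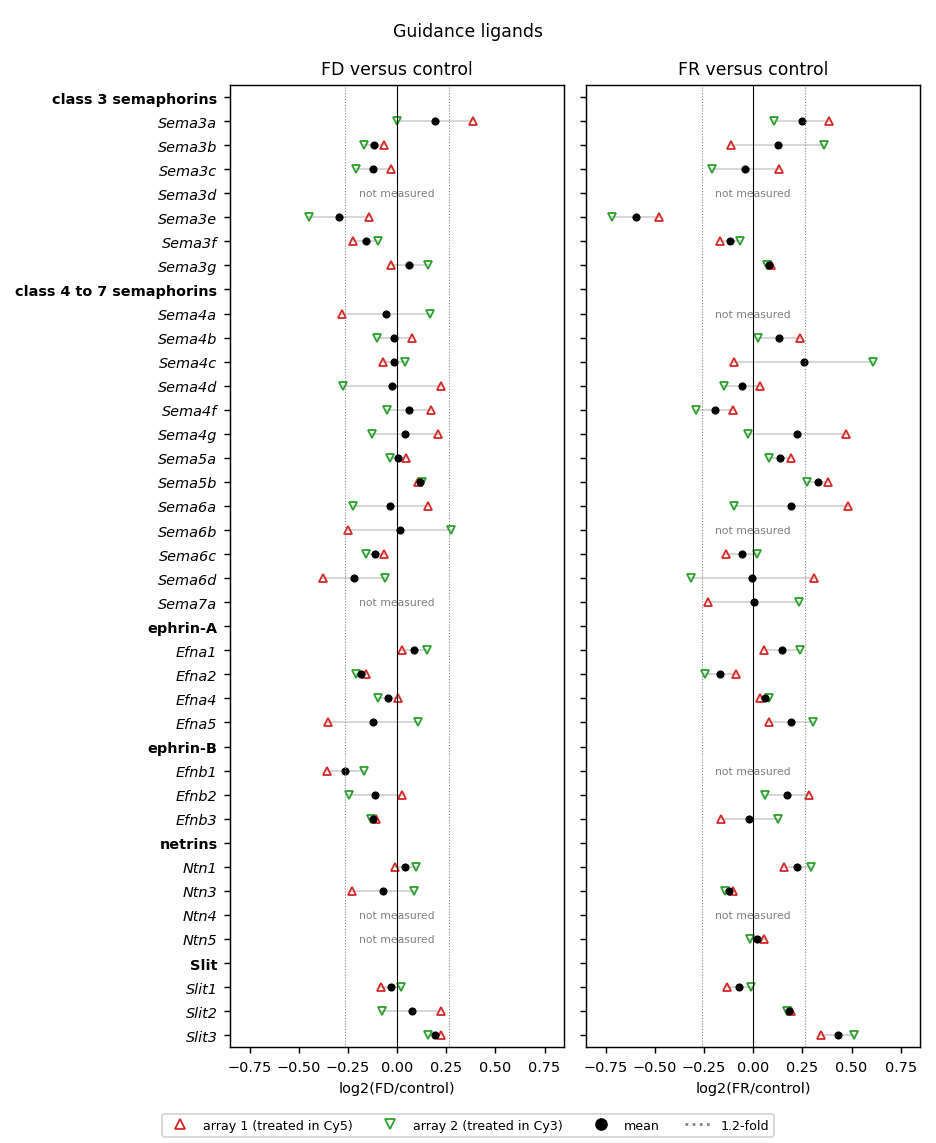
log2 ratio of treated over control for each guidance ligand, FD on the left and FR on the right, by family. Triangles are single arrays, black dots their means and dotted lines the 1.2-fold limit. In FR both arrays lie past the limit for Sema3e (lower), Sema5b and Slit3 (higher), and in FD for none.

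Other class 3 members stayed closer to their controls. Sema3a, the classical repellent of cortical and sensory axons, was highest of the class, at 0.39 and -0.00 in FD and 0.39 and 0.11 in FR. Its other measured probe gave means of -0.03 in FD and -0.10 in FR, and the dimmest was not above background. Sema3f, a ligand of neuropilin 2, had probes of like brightness that differed in sign, with means of -0.16 and 0.05 in FD and -0.12 and 0.23 in FR. Sema3b had -0.07 and -0.17 in FD and -0.11 and 0.36 in FR.

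Sema5b, a transmembrane semaphorin with thrombospondin repeats, was the highest of the class 4 to 7 semaphorins in both comparisons. It had log2 ratios of 0.38 and 0.27 in FR (mean 0.33) and of 0.11 and 0.13 in FD (mean 0.12). Its signal was 9.25 in FD, against 9.13 in its control, and 9.68 in FR, against 9.35 in its control. The FR pool was the highest of the 4. The result in FR held on each of its probes. The second probe (chr16:35663626-35663685) gave 0.47 and 0.46 and the third (chr16:35664275-35664334) 0.86 and 0.36 in FR, so all 6 values were past the limit. In FD the same probes gave 0.15 and -0.08, and 0.46 and -0.06, which differ in sign between arrays.

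The other membrane-bound semaphorins spread to both sides. In FR the lowest was Sema4f at -0.10 and -0.29, and the values of Sema4c, a ligand of plexin B2, lay furthest apart at -0.10 and 0.61. In FD the lowest was Sema6d, a ligand of plexin A1, at -0.38 and -0.06. The median of the class 4 to 7 semaphorins was -0.01 over 12 genes in FD and 0.13 over 11 genes in FR. With median centring in place of loess the class had 0.04 in FD, beside 0.05 for all genes, and 0.03 in FR, beside -0.04 for all genes.

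Slits repel commissural axons from the midline through Robo receptors. Slit3 was the highest ligand in FR, at 0.35 and 0.51 (mean 0.43), and had 0.23 and 0.15 in FD (mean 0.19). Its signal was 7.40 in FD, against 7.21 in its control, and 7.76 in FR, against 7.33 in its control. Both treated pools lay above their own controls on both arrays, past the limit in FR. Slit3 has a single probe on the array. Slit2 had 0.19 and 0.17 in FR and 0.23 and -0.08 in FD on its brightest probe, but its measured probes differed in sign. Slit1 was the lowest of the 3, at -0.13 and -0.01 in FR and -0.08 and 0.02 in FD.

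No ephrin or netrin was called against control. Efna2, an ephrin-A, was the lowest of its class in both comparisons, at -0.16 and -0.21 in FD and -0.09 and -0.25 in FR. Efna5, which with the other ephrin-As patterns retinal and thalamic maps, had -0.35 and 0.11 in FD and 0.08 and 0.30 in FR, and Efna1 was the highest ephrin-A in FD at 0.02 and 0.15. Among ephrin-Bs, Efnb1 was lowest in FD at -0.36 and -0.17 and was not measured in FR. Efnb2, which marks arteries as well as guiding axons, had 0.03 and -0.25 in FD and 0.29 and 0.06 in FR. Efnb3, which marks the midline of the spinal cord, had -0.11 and -0.13 in FD and -0.17 and 0.12 in FR. Ntn1, the founding netrin, had -0.01 and 0.10 in FD and 0.16 and 0.29 in FR. Ntn3 had -0.23 and 0.09 in FD and -0.10 and -0.14 in FR.

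Among the receptors, none was called against control in either comparison. The median over receptors was -0.05 in FD (33 genes) and -0.01 in FR (30 genes). Dcc, which mediates attraction to netrin, had the highest receptor mean in FR, with 0.79 and 0.16 (mean 0.475), and its array 2 value was short of the limit. In FD it had 0.27 and -0.18. The signal of Dcc was 10.47 in FD, against 10.43 in its control, and 10.96 in FR, against 10.49 in its control, so the FR pool stood apart from the other 3. Both dimmer Dcc probes lay near 0, with means of 0.02 and -0.01 in FR and -0.06 and 0.08 in FD.

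The repulsive netrin receptor Unc5b, also found on endothelial cells, had the lowest receptor mean in FD, at -0.52 and -0.14 (mean -0.33). In FR it had -0.25 and -0.22. All 4 values were negative, but in each comparison at least one was inside the limit. Its signal was 9.09 in FD, against 9.42 in its control, and 8.97 in FR, against 9.20 in its control. Unc5c was the highest netrin receptor in FD, at 0.15 and 0.06.

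**Figure D2:**
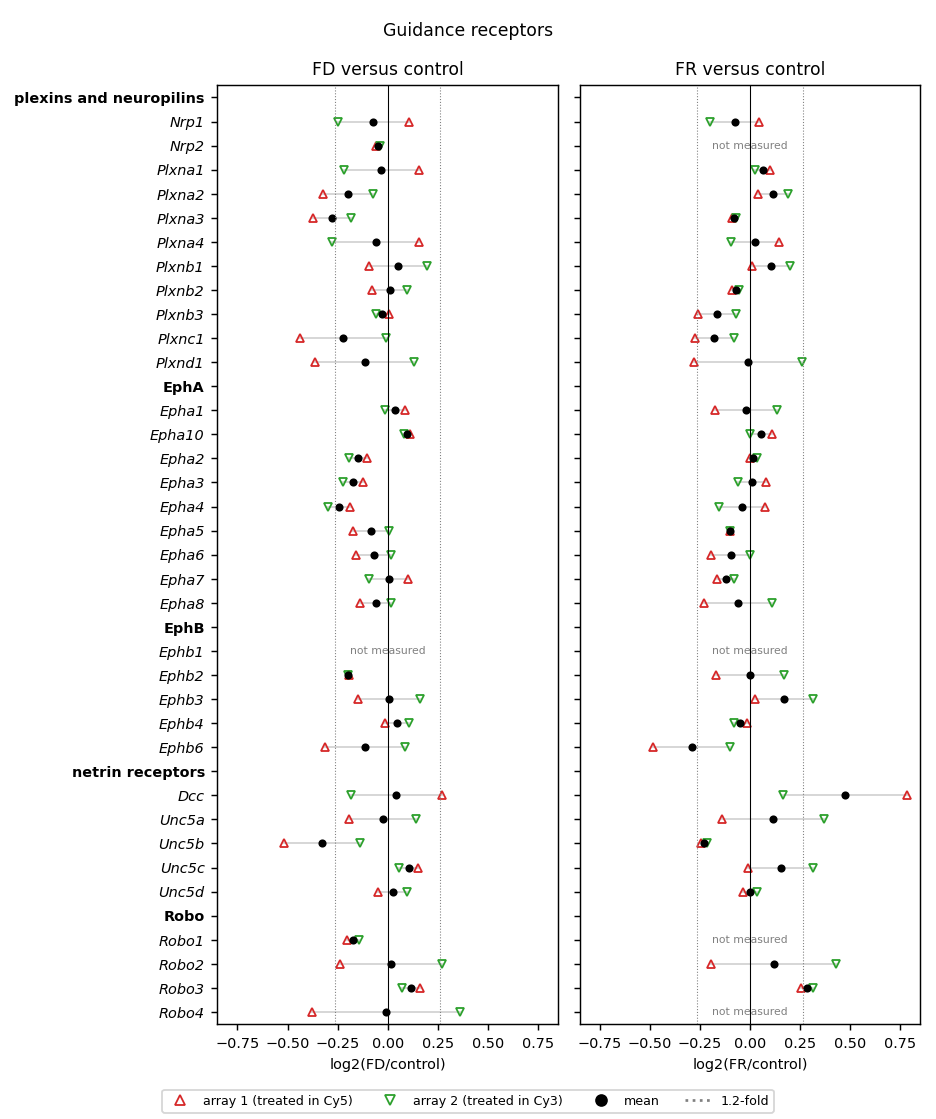
log2 ratio of treated over control for each guidance receptor, FD on the left and FR on the right, by family, with the symbols of the ligand plot. No receptor has both arrays past the dotted 1.2-fold limit. Dcc in FR reaches 0.79 on array 1 and 0.16 on array 2.

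Plexins and neuropilins, the semaphorin receptors, gave medians of -0.06 over 11 genes in FD and -0.04 over 10 genes in FR. Plxna3 was lowest in FD, at -0.37 and -0.18. Its brightest probe was flagged on array 2 of FR. That probe gave -0.49 on array 1 and, with the flagged spot kept, -0.53 on array 2. The dimmer probe that replaced it, with a log2 signal of 6.69, gave -0.09 and -0.07 in FR. Plxnc1, the receptor of Sema7a, was lowest in FR among values from unflagged probes, at -0.28 and -0.08, and had -0.44 and -0.01 in FD. Plxnb1 was highest in FD at -0.09 and 0.20 and Plxna2 highest in FR at 0.04 and 0.19. Plxnd1, the receptor of Sema3e, had -0.36 and 0.13 in FD and -0.28 and 0.26 in FR. Its sign followed the array in both comparisons.

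Nrp1, the co-receptor of Sema3a that also binds the vascular growth factor VEGF, depended on the probe. The brightest gave 0.04 and -0.20 in FR, whereas its 2 other probes gave 0.52 and 0.24, and 0.23 and 0.34. In FD the means of these 3 probes were -0.07, 0.10 and 0.02. Over the family, several measured probes existed for 28 members in FD and 29 in FR. Their means had the same sign for 17 members in FD and 16 in FR. The sign differed in FD for Dcc, Ephb4, Nrp1, Plxnb1, Plxnb2, Sema3a, Sema3f, Sema4d, Sema5a, Sema6c and Slit2. In FR it differed for Dcc, Efnb2, Epha3, Ephb2, Nrp1, Plxna1, Robo2, Sema3a, Sema3f, Sema4d, Sema5a, Sema6a and Slit2. The median gap between the highest and the lowest probe of a member was 0.09 in FD and 0.16 in FR, and the widest was that of Dcc in FR, at 0.49.

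**Figure D3:**
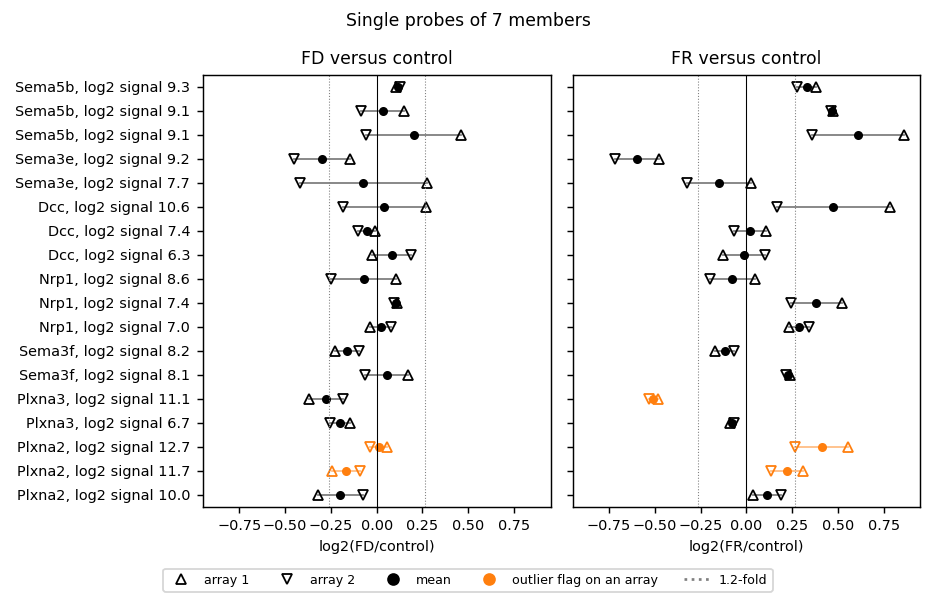
log2 ratio of treated over control for single probes of 7 members, labelled with their mean log2 signal, FD on the left and FR on the right. Triangles are arrays and dots are means, in orange where a spot had an outlier flag. All Sema5b probes lie past the dotted 1.2-fold limit in FR, while the probes of Dcc, Nrp1 and Sema3f fall on both sides of 0.

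EphA receptors bind ephrin-As and set up topographic maps. Their medians were -0.07 in FD and -0.04 in FR over 9 genes. Epha4, which keeps corticospinal axons from recrossing the midline, was lowest in FD at -0.19 and -0.30, and Epha10 highest at 0.11 and 0.08. In FR the class spanned a narrow range, between Epha7 at -0.16 and -0.08 and Epha10 at 0.11 and -0.00. Among EphB receptors, Ephb2 was lowest in FD at -0.19 and -0.20 and Ephb4, a receptor of venous endothelium, highest at -0.01 and 0.10. In FR, Ephb6, whose kinase domain is inactive, was lowest at -0.48 and -0.10, and Ephb3 highest at 0.03 and 0.31.

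Of the Robo receptors, Robo3, which lets commissural axons reach and cross the midline, was highest in both comparisons, at 0.16 and 0.07 in FD and 0.25 and 0.32 in FR. It missed the limit in FR on array 1. Robo1 was lowest in FD at -0.20 and -0.15. Robo2 had -0.24 and 0.27 in FD and -0.19 and 0.43 in FR, and the endothelial Robo4 had -0.38 and 0.36 in FD. For both genes the sign followed the dye orientation, and for Robo2 it did so in both comparisons.

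**Figure D4:**
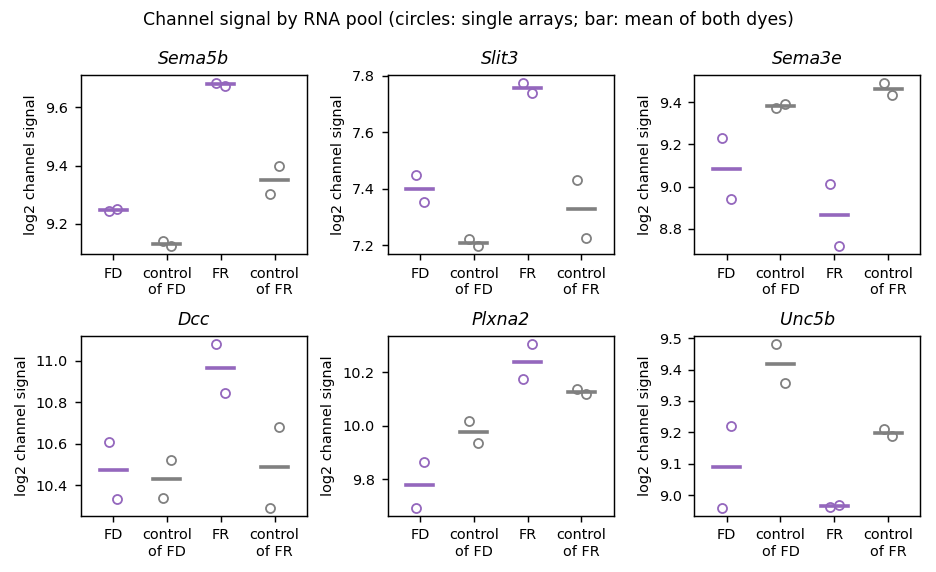
log2 channel signal of 6 members in each RNA pool, each treated pool left of its own control; circles are single arrays and bars the mean of both. Vertical axes differ between genes and do not start at 0. FR is the highest pool for Sema5b, Slit3 and Dcc and the lowest for Sema3e.

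The counts of called members were small, and nothing is read from them against the shares over all genes given beside them. In FD, 0 of 63 members were called higher and 0 lower, beside 1.18% and 1.0% of 17970 genes. By the mean of both arrays alone, 4 members were past 1.2-fold and all were lower (Unc5b, Sema3e, Plxna3 and Efnb1), beside 2.66% of all genes higher and 2.9% lower. Both arrays were negative, at any size, for 19 of the 63 members and positive for 6, which is 30.2% and 9.52% of the members beside 23.3% and 25.5% of all genes. With median centring that count was 1 negative and 4 positive, beside 3.1% and 4.9% of all genes. The median of the members was -0.03 in FD, beside 0.00 for all genes, and became 0.02, beside 0.05, with median centring. The 2 FD arrays correlated at 0.13 over all genes and at -0.18 over the members, as a description of points that share both pools.

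In FR, 2 of 59 members were called higher and 1 lower, or 3.39% and 1.69%, beside 3.85% and 4.2% of 18569 genes. No member passed 1.5-fold on both arrays in FR or FD, beside 0.582% of genes higher and 0.431% lower in FR and 0.089% and 0.128% in FD. Both arrays were positive for 18 members and negative for 15, beside 28.3% and 27.4% of all genes. The median of the members was 0.01, beside 0.01 for all genes. By the mean alone, 4 members were past 1.2-fold higher (Dcc, Slit3, Sema5b and Robo3) and 2 lower (Sema3e and Ephb6), beside 7.54% and 7.53% of all genes. Arrays correlated at 0.41 over all genes and at 0.19 over the members. None of the 3 FR calls was made with median centring or with the background model fitted on all spots. These settings called 1.09% and 1.22% of all genes in either direction, beside 8.05% as reported. With median centring, both FR arrays were positive for 4.0% of all genes and negative for 5.9%, so few genes could be called. The fit on all spots takes in 44 spots of high background on array 2 of FR, where background reached 65319. On the other arrays it reached at most 112. With flagged spots kept, an alternative chosen after seeing the data, the calls also took in Ephb1 and Plxna2 (both higher) and Plxna3 (lower).

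**Figure D5:**
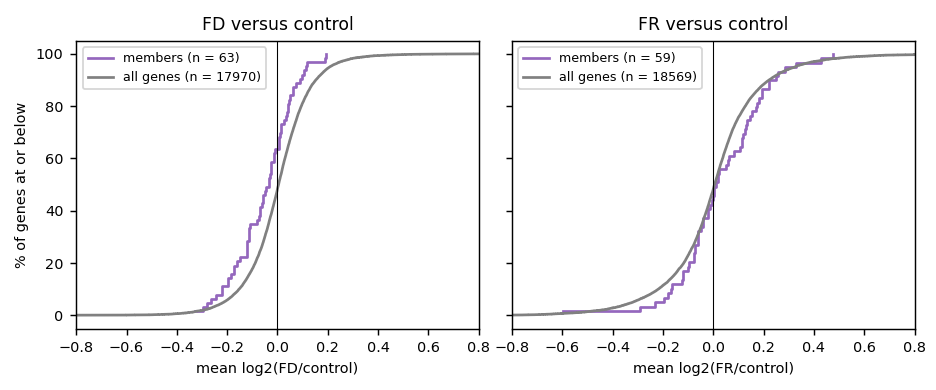
Cumulative share of genes, in percent, by mean log2 ratio of treated over control, for guidance genes (purple) and all measured genes (grey), FD on the left and FR on the right. In FD the purple curve lies left of the grey one at the median, at -0.03 against 0.00, and in FR the medians are both 0.01.

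Some markers of glia were lower in FR. Of 8 astrocyte markers, 2 were called lower in FR (S100b and Aqp4), beside 4.2% of all genes, with a list median of -0.28 and a summed signal over 7 of them of 4869 to 5017 in FR, against 5240 to 5511 in its control. Slc1a3, at 0.24 and 0.23, and Aldh1l1, at 0.12 and 0.08, were on the other side of 0 on both arrays. Of 7 markers of the oligodendrocyte lineage, 3 were called lower (Olig1, Gpr17 and Cnp), beside the same 4.2% of all genes, with a median of -0.23. Their sum over 6 was 4562 to 4694 in FR, against 5560 to 6032 in its control. Sox10, at 0.14 and -0.11, and Pdgfra, at 0.12 and -0.15, differed in sign between the arrays. Each marker in these sums was above background in every channel. In whole brain RNA, fewer cells of a type and less RNA per cell cannot be told apart. Whether these cells have a part in the FR values of Sema3e, Sema5b and Slit3 was not tested.

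The treatments were set against each other by subtracting FR from FD between arrays of equal dye orientation, on 57 members with a probe measured on all 4 arrays. The values subtracted are ratios to control, so a difference between the control RNAs enters the result. Sema3e was the only member called higher, with differences of 0.33 and 0.27, and Dcc the only one called lower, with -0.52 and -0.35. That is 1.75% of the members each way, beside 2.87% and 2.46% of 16768 genes, and at 1.5-fold no member was called, beside 0.0716% and 0.268%. With median centring the calls were 1 higher (Sema3e) and 0 lower, with Dcc at -0.24. Over all genes 90.8% of the calls were then higher, against 53.9% with loess. On the mean over measured probes neither gene was called, with Sema3e at 0.19 and Dcc at -0.14. Sema5b alone was then called, lower at -0.35, beside 4.1% of all genes. Keeping flagged spots was an alternative chosen after seeing the data. It also called Ephb1 (-0.63), otherwise not measured, and Plxna2 (-0.40) lower, beside 5.8% of all genes. Sema3e was below its control in both treated pools, further in FR by this difference. With the background model fitted on all spots, however, the mean difference was -0.0012. That fit takes in the 44 spots of high background on array 2 of FR.

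Relative to their controls, more members lay lower in FD than in FR than the other way round. Both differences were negative for 26 of 57 members and positive for 9, or 45.6% and 15.8%, beside 30.1% and 31.2% of all genes. The median difference was -0.08, beside -0.00 for all genes. With median centring these counts turned to 6 negative and 17 positive, beside 9.3% and 42.0% of all genes, and the median to 0.05, beside 0.09. The ligands had a median difference of -0.10 and the receptors one of -0.05. By the mean alone, Dcc, Efna5 (-0.32), Plxna2 (-0.31), Efnb2 (-0.28) and Sema4c (-0.27) were past 1.2-fold lower and Sema3e (0.30) higher, beside 4.94% of all genes lower and 5.05% higher.

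Some families held the extremes of that difference. Differences for Efna5 were -0.43 and -0.20, and those for Efnb2 were -0.26 and -0.31. Plxna2, a receptor for class 6 semaphorins, had -0.36 and -0.26, from values of -0.32 and -0.07 in FD and 0.04 and 0.19 in FR. Its signal was 9.78 in FD, against 9.98 in its control, and 10.24 in FR, against 10.13 in its control. Of the members with a higher ratio to control in FD than in FR, Sema4f had 0.27 and 0.24, Ephb6 0.17 and 0.19, and Plxnb3 0.27 and 0.01. Sema3b had the lowest mean of class 3 at -0.24, Ephb2 that of the EphBs at -0.20, Epha3 that of the EphAs at -0.18 and Ntn1 that of the netrins at -0.18. The highest means there were 0.13 for Epha7 and 0.05 for Ntn3, and Unc5d was the highest netrin receptor at 0.03. In the Slit and Robo families the lowest means were -0.24 for Slit3 and -0.17 for Robo3, and the highest were 0.04 for Slit1 and -0.10 for Robo2. For some members the controls differed more than the treated pools. FD minus FR in log2 signal was 0.05 between treated pools and -0.20 between controls for Sema4f. It was 0.04 and 0.28 for Sema3b, and 0.04 and 0.23 for Ntn1. The treated pools differed more for Dcc (-0.49 and -0.06), Sema3e (0.22 and -0.08) and Ephb2 (-0.36 and -0.17).

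Genes that act downstream of the receptors were described alongside. Of 46 listed effectors, 39 were measured in FD, with a median of -0.02 and with 0 called higher and 1 lower, beside 1.18% and 1.0% of all genes. In FR 36 were measured, with a median of -0.00 and with 2 called higher and 2 lower, beside 3.85% and 4.2% of all genes. The largest means in FD were those of the kinase Gsk3b (-0.37), the actin-binding Ablim1 (-0.32) and Srgap1, which acts below Robo (-0.28). In FR they were those of the Src-family kinase Fyn (0.50), the focal adhesion kinase Ptk2 (-0.48) and Farp1 (0.38), an exchange factor.

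Of 36 other guidance and adhesion genes, 35 were measured in FD, with a median of -0.06 and 0 called, beside 1.18% of all genes higher and 1.0% lower. In FR 32 were measured, with a median of 0.01 and with 1 called higher and 1 lower, beside 3.85% and 4.2% of all genes. Omg, a myelin glycoprotein that inhibits axon growth, led in FD at 0.27, followed by its fellow inhibitor Rtn4 at -0.26 and the adhesion molecule L1cam at -0.25. In FR the receptor kinase Met led at -0.50, followed by the receptor phosphatase Ptprs at 0.44 and the netrin and RGM receptor Neo1 at 0.35.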

How the data were processed

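Per the file headers, the deposited scanner files hold mean spot intensities and median background intensities of the green and red channels, a dye-normalised log10 ratio, and flags, from Agilent Feature Extraction 9.5.3.1. The authors' deposited value table holds log2 ratios; against the scanner ratio its columns gave r of 1 or -1, so they are treated over control. Intensities were corrected here with normexp (offset 50, fitted without spots whose background was over 2 times the array median) and normalised by loess within arrays with limma 3.58.1 (R 4.3.3), control spots having weight 0. The background rule took out 44 spots on array 2 of FR, where background reached 65319, 3 on array 1 of FD and 0 on the other arrays. Flagged spots were left out. Ratios of swapped arrays were turned, and spots of a probe averaged. Channel signals were scaled with Aquantile. On each array, 71.4% to 85.3% of 43379 spots were well above background in a channel. The number of arrays limits the precision, and with 1 pool per condition no test was run. On simulated data with 2-fold changes, the normalisation was checked with the 1.5-fold size. The 1.2-fold size used for the calls was not simulated. The members and lists were chosen with earlier results of these data known. Named are members called at 1.2-fold, the extremes of each family, members whose probes differ in sign or that were too dim, and the 3 largest means of both further gene lists; marker genes named were chosen after their values were seen. Downstream effectors, other guidance and adhesion genes, and lists of cell type markers (neurons, neural progenitors, astrocytes, oligodendrocyte lineage, microglia, endothelium, mural cells, meninges and fibroblasts, skeletal muscle, choroid plexus, retina and lens, pituitary) were the further lists. Alternatives covered scaling, background, probe choice, filters and single arrays.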

Additional observations from a re-analysis of the deposited data

Results flagged for a closer look

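Plxna2 was singled out because every array of FD lay on one side of its control and every array of FR on the other. Its log2 ratios were -0.32 and -0.07 in FD and 0.04 and 0.19 in FR, and FD minus FR was -0.31. The difference was not tested, since each condition is 1 pool. Its 2 brighter probes carried outlier flags. With those spots kept, the brightest gave 0.06 and -0.03 in FD and 0.56 and 0.26 in FR, and the second -0.25 and -0.09 in FD and 0.31 and 0.13 in FR.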

How the results depend on the processing

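No paired analysis was possible because the results come from no test and the shared array numbers mark the dye orientation. Against control in FD, the count of members past 1.2-fold was 0, and became 1 with the scanner software's log ratio and with the authors' value table (Epha3 in both), and 4 by the mean of the dye swap; single arrays gave 7 to 13. The share of all genes called in FD was 2.18% as reported, 6.33% with the scanner ratio or table, 5.56% by the mean and 11.8% to 16.1% on single arrays. The FD median of -0.03 became 0.016 with median centring, and single arrays gave -0.072 to -0.040. In FR the count of 3 became 0 with median centring and 0 with normexp fitted on all spots, 5 with the scanner ratio and 5 with the value table, 6 with flagged spots kept and 6 by the mean; single arrays gave 12 to 14. In the same order the shares of all genes were 8.05%, then 1.09%, 1.22%, 15.8%, 15.8%, 8.55% and 15.1%, and 21.2% to 23.4%. The FR median of 0.01 became -0.035 with median centring. For FD minus FR the count of 2 became 1 with median centring (Sema3e), 1 with the mean over probes (Sema5b alone) and 0 with normexp on all spots. It became 4 with flagged spots kept (Ephb1 and Plxna2 beside Dcc and Sema3e) and 6 by the mean, and single arrays gave 7 to 11. The shares of all genes were 5.33%, then 6.48%, 4.1%, 1.51%, 5.8% and 9.99%, and 13.6% to 16.6%. Its median of -0.08 became 0.051 with median centring, which moved the median of all genes to 0.09. Sema3e in FD minus FR turned to -0.0012 with normexp on all spots, a setting that takes in the high-background spots of FR array 2. Of the values of called genes under the alternatives, 37 moved by less than the spread between arrays, 15 by more and 1 turned. The cause of these shifts was not tested. Slit3 in FR ranged between 0.19 and 0.68, Sema5b between 0.22 and 0.47 and Sema3e between -0.72 and -0.30, so their directions held under the alternatives run. Keeping flagged spots and calling by the mean were chosen after seeing the data. The probe measured on all 4 arrays is already the setting of FD minus FR and gave no further value there. Dim probes leave Sema3d and Ntn4 unresolved in both comparisons, and Ntn5 in FD.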
